A study of Mus musculus with 7 samples.

Results

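Alpelisib added to tamoxifen was compared with tamoxifen alone in endometrial epithelial cells of mice without ovaries. The comparison uses 4 of the 7 libraries of the study, all those labelled tamoxifen plus alpelisib (2) or tamoxifen (2). All mice were C57BL/6 females whose ovaries were removed at 6 to 7 weeks of age, so the controls also lacked ovarian hormones. Randomization placed 18 mice in 3 arms of 6, treated for 28 days. The arms received vehicle, tamoxifen under the skin (0.5 mg each day, in peanut oil), or that tamoxifen dose together with oral alpelisib (30 mg/kg each day). A low-dose estradiol pellet of 0.01 mg was given to 2 mice, and 1 vehicle library and 2 estradiol libraries were profiled beside the 4 compared here. Alpelisib was given in a mixture of PEG400, Tween80 and propylene glycol. Whether the mice on tamoxifen alone received that mixture is not stated, so alpelisib and its solvent cannot be told apart. The labels call the samples epithelial cells and describe the collection of uterine horns, but not how epithelium was separated. The library titles name a mouse 1 and a mouse 2 in each group and do not say whether a library held RNA of 1 mouse or a pool. If they were pools, the p-values measure only the spread between these libraries.

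Tamoxifen binds the estrogen receptor, which it blocks in breast and partly activates in the uterus. Alpelisib inhibits the alpha catalytic subunit of phosphoinositide 3-kinase (PI3K), the enzyme that turns growth factor signals into the membrane lipid PIP3. PIP3 recruits the kinase AKT, which keeps FOXO transcription factors out of the nucleus and, through mTORC1, favours ribosome production and the SREBP factors that switch on sterol and fatty acid synthesis. In the uterus the pathway acts downstream of growth factors that relay the effect of estrogen on the epithelium.

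Expression is given as FPKM, fragments mapped to a gene scaled to the length of its transcript and to all mapped fragments of the library, as the authors deposited it. The depth behind it was estimated from the size of a single fragment in the lowest values at 15800000 to 17800000 fragments in the 4 libraries, so that 1 FPKM of a 2 kb transcript stands for 31.7 to 35.6 fragments. Epithelial markers were abundant in all 4 libraries, with Epcam between 226 and 289 FPKM. The summed level of the 8 epithelial markers was 4440 and 5900 FPKM with tamoxifen and 6161 and 6661 FPKM with alpelisib. Markers of T and NK cells, eosinophils and nerve did not reach 1 FPKM in any library. The 2 tamoxifen libraries differed from each other more than the 2 alpelisib libraries did, with a median absolute log2 difference of 0.188 against 0.0996. Tamoxifen 2 was above tamoxifen 1 in 64.4% of the genes tested, with a median log2 difference of 0.09.

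Of 12314 genes tested, 1445 passed an adjusted p of 0.05 (11.7%), 853 higher with alpelisib (6.93%) and 592 lower (4.81%). These shares are the background for the counts of each gene list below. Fold changes are on the log2(FPKM + 1) scale and are followed by the standard error (SE). This scale understates changes of genes with low values. Over all genes tested the median log2 fold change was -0.03. Of 345 tested genes named by rule, 197 passed. The rule picks many of them for passing or for a low p, so this share is not comparable with that of all genes. That the 2 groups do not overlap was part of the rule for some named genes and nearly follows from passing, so nothing is read from it below. Whatever the test gave, they did not overlap in 30.2% of all genes tested upward and in 34.3% downward. The number of passing genes rested on having both alpelisib libraries: it was 18 without alpelisib 1, 14 without alpelisib 2, 301 without tamoxifen 1 and 692 without tamoxifen 2. Of the 197 named genes, 8 passed whichever of the 4 libraries was left out, namely Sqle, Idi1, Krt14, Cxcl3, Cxcl5, S100a8, Tff1 and Crabp1. The groups did not overlap in any of the 197. The sign of their change could therefore not turn when 1 of the 4 libraries was left out. Leaving out 1 of the 4 libraries also takes its group out of the estimate of the spread that all groups share. The alpelisib libraries were a closer pair than the tamoxifen libraries. A lost call therefore need not mean a smaller change. For the leading gene groups below, the counts of passing members without each of the 4 libraries are given beside the count with all of them.

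Sterol synthesis, the route from acetyl-CoA to cholesterol, was the gene list with the largest share of members that fell. Of 20 members 19 were tested, 13 fell, none rose, and all 19 had a negative log2 fold change, with a list median of -0.97. Their summed level was 270 and 294 FPKM in the tamoxifen libraries and 111 and 114 FPKM with alpelisib, against 166 FPKM in the vehicle library. The count of members that fell was 7 without tamoxifen 1, 8 without tamoxifen 2 and 2 without either alpelisib library, while the median stayed between -1.01 and -0.97. Hmgcs1, the enzyme that makes HMG-CoA, was listed at 0 in all 7 libraries and gave no value.

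In the mevalonate branch, 6 of 7 tested members fell. Idi1, the isomerase that supplies the allylic isoprenoid unit, was at 19.5 and 19.9 FPKM with tamoxifen and at 3.32 and 3.14 FPKM with alpelisib (log2 fold change -2.29 ± 0.12, adjusted p = 0.00156). Fdps, which joins isoprenoid units into farnesyl diphosphate, was at 53.5 and 56.6 FPKM and then at 16.6 and 15.4 FPKM (-1.72 ± 0.16, adjusted p = 0.00423). The 2 libraries of a group lay close together for Idi1 and Fdps. The decarboxylase gene Mvd fell by 1.32 ± 0.19 on the log2 scale, the thiolase gene Acat2 by 0.97 ± 0.17 and the mevalonate kinase gene Mvk by 0.80 ± 0.14. Pmvk, the next kinase of the branch, did not pass (-0.63 ± 0.37, adjusted p = 0.32).

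From squalene to cholesterol, 7 of 12 tested members fell. Sqle, the epoxidase at a second control point of the route, was at 12.04 and 12.5 FPKM with tamoxifen and at 1.70 and 1.53 FPKM with alpelisib (log2 fold change -2.34 ± 0.12, adjusted p = 0.00156). That was below its level in the vehicle library (5.89 FPKM) and in the estradiol libraries (9.76 and 9.70 FPKM). Msmo1, a methyl sterol oxidase, was at 24.5 and 29.1 FPKM and then at 7.90 and 8.70 FPKM (-1.58 ± 0.15, adjusted p = 0.00441). Cyp51, the lanosterol demethylase, was at 17.1 and 16.0 FPKM and then at 5.97 and 5.61 FPKM (-1.37 ± 0.13, adjusted p = 0.00455). The squalene synthase gene Fdft1 fell by 1.24 ± 0.15, Lss by 0.86 ± 0.13 and Nsdhl by 0.77 ± 0.17. The late steps Dhcr7, Sc5d, Tm7sf2, Hsd17b7 and Ebp did not pass, with log2 fold changes from -0.76 to -0.09.

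**Figure D1:**
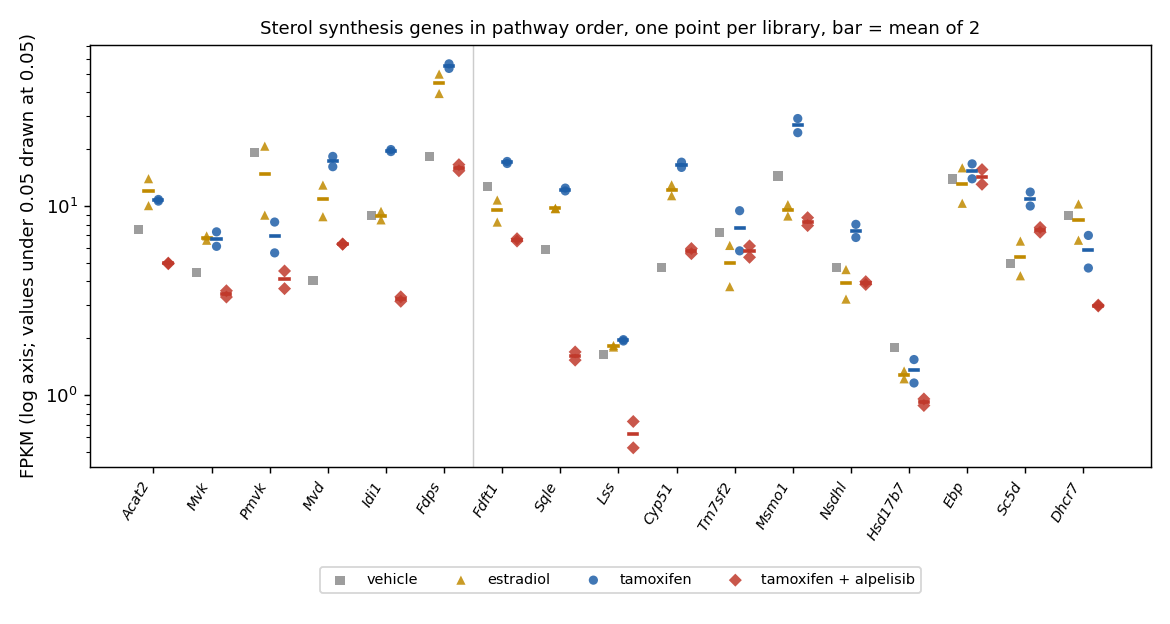
FPKM on a log axis of 17 tested genes of sterol synthesis in pathway order, mevalonate branch left of the line, with 1 point per library and a bar at the mean of each group of 2. Idi1 and Sqle stand lowest under alpelisib relative to tamoxifen, and Ebp is nearly level (13.1 to 16.7 FPKM in the 4 libraries).

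Promoters of 4 sterol synthesis genes that fell are shown to let their letters be seen. SREBP factors act on such promoters beside NF-Y, which binds the CCAAT box. RefSeq promoter windows (GRCm38.p6, 250 bases before to 50 after the start) were matched for 15 of the 20 sterol synthesis genes, and 14 of the 15 held the motif CCAAT on either strand. The holders included Dhcr7, Ebp, Hsd17b7, Pmvk, Sc5d and Tm7sf2, which did not pass, and Hmgcs1, which gave no value. The motif therefore does not separate the members that fell from the others. It was held by 37.4% of all 32851 windows searched, and by 41.1% of genes with a window. The sterol regulatory element searched as TCACNCCAC on either strand was held by 1 of the 15 genes, Hmgcs1. Among all genes with a window 1.44% held it, and among the windows searched 1.24%. The 250 bases before the start are printed 5′ to 3′ on the strand of the gene for 4 genes that fell, with CCAAT or its reverse complement in capitals. The windows are chr13:8885356-8885605, plus strand for Idi1, chr5:4104698-4104947, minus strand for Cyp51, chr8:64733579-64733828, minus strand for Msmo1 and chr8:122443423-122443672, minus strand for Mvd.
Idi1: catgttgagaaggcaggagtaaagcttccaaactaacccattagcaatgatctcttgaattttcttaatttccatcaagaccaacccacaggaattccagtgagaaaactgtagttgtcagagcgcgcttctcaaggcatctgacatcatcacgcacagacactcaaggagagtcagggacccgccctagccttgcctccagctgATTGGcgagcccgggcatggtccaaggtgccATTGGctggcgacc
Cyp51: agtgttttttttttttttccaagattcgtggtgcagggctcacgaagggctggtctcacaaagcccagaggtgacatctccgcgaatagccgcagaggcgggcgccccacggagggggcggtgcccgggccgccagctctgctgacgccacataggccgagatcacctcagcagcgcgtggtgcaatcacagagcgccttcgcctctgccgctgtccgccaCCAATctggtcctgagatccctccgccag
Msmo1: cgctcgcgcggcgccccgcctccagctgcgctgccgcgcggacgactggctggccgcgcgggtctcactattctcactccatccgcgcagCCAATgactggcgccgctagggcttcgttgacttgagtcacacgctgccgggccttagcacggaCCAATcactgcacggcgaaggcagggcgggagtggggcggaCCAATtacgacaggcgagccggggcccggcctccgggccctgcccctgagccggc
Mvd: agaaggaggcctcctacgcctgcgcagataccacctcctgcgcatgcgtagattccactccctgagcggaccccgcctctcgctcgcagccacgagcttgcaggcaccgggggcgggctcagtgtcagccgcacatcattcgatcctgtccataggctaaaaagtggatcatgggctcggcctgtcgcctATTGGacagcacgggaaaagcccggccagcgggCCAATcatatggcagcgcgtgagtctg
Idi1 held the motif with its first base 45 and 14 bases before the start, Cyp51 at 29 bases, Msmo1 at 160, 96 and 55 bases, and Mvd at 60 and 27 bases. These matches describe letters in the window and were not tested for binding.

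Among 20 tested genes that control or move sterols, 5 fell and 1 rose. Insig1, which holds SREBP in the endoplasmic reticulum and is itself an SREBP target, was at 28.6 and 33.7 FPKM with tamoxifen and at 13.96 and 14.5 FPKM with alpelisib (log2 fold change -1.07 ± 0.14, adjusted p = 0.00831). Srebf2, the factor for sterol genes, fell by 0.64 ± 0.12 (adjusted p = 0.0258), from 22.3 and 20.7 FPKM to 13.3 and 13.6 FPKM. Srebf1, the factor for fatty acid genes, was at 11.2 and 14.9 FPKM and then at 9.09 and 10.6 FPKM and did not pass (-0.36 ± 0.19, adjusted p = 0.274). Tmem97 (-1.19 ± 0.16), a sterol-regulated membrane protein, and the sterol carrier Stard4 (-0.77 ± 0.18) also fell. The one that rose was Abca1, the pump that exports cholesterol, from 0.488 and 0.489 FPKM to 2.02 and 2.31 FPKM (1.09 ± 0.23, adjusted p = 0.0346). No member of this list passed without alpelisib 1 or without alpelisib 2.

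Fatty acid synthesis moved less. Of 20 tested members 3 fell and none rose, with a median log2 fold change of -0.32. The 3 were Elovl6, which lengthens palmitate (-1.11 ± 0.17, adjusted p = 0.0129), the desaturase Scd2 (-0.84 ± 0.14, adjusted p = 0.0177) and the phosphatidate phosphatase Lpin1 (-0.63 ± 0.13, adjusted p = 0.0298). Fasn, the fatty acid synthase, was at 20.3 and 21.6 FPKM with tamoxifen and at 12.3 and 12.8 FPKM with alpelisib and did not pass (-0.70 ± 0.25, adjusted p = 0.121). Its estradiol libraries, which enter the shared estimate of the spread, stood at 36.7 and 62.6 FPKM. Acaca, the acetyl-CoA carboxylase, gave -0.67 ± 0.27 (adjusted p = 0.157) and Acly, the citrate lyase, -0.19 ± 0.19 (adjusted p = 0.554). The 3 calls were lost without either alpelisib library.

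FOXO1 and a part of the genes known as FOXO targets rose. Of 39 list members 35 were tested, 15 rose, none fell and 20 did not pass, with a median log2 fold change of 0.81. Foxo1 itself was at 6.03 and 5.74 FPKM with tamoxifen and at 13.9 and 14.3 FPKM with alpelisib (1.13 ± 0.13, adjusted p = 0.00644), close to its vehicle level of 13.0 FPKM. Foxo3 (5.97 and 8.63 FPKM, then 14.1 and 12.7 FPKM, adjusted p = 0.0878) and Foxo4 (0.43 ± 0.12, adjusted p = 0.0731) did not pass. The tamoxifen libraries were unequal for this list: tamoxifen 2 was above tamoxifen 1 in 27 of the 35 members, with a median log2 difference of 0.38. The list median was 0.58 without tamoxifen 1 and 1.01 without tamoxifen 2. Without tamoxifen 1 the count of members that rose was 3, without tamoxifen 2 it was 13, and without either alpelisib library it was 0.

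The FOXO targets that rose covered metabolism, growth control and protein turnover. Pdk4, the kinase that switches off pyruvate dehydrogenase in fasting, was at 0.0940 and 0.256 FPKM with tamoxifen and at 2.07 and 1.94 FPKM with alpelisib (log2 fold change 1.36 ± 0.13, adjusted p = 0.00487). Bnip3, a mitophagy receptor, was at 5.34 and 8.12 FPKM and then at 22.0 and 25.5 FPKM (1.70 ± 0.23, adjusted p = 0.00977). Btg1, a brake on proliferation, was at 20.95 and 30.1 FPKM and then at 68.3 and 70.5 FPKM (1.43 ± 0.21, adjusted p = 0.0116). Gabarapl1, an autophagosome protein, was at 25.2 and 31.6 FPKM and then at 75.2 and 76.1 FPKM (1.39 ± 0.21, adjusted p = 0.013). Fbxo32, the ubiquitin ligase atrogin-1, was at 1.504 and 1.64 FPKM and then at 3.74 and 3.84 FPKM (0.90 ± 0.13, adjusted p = 0.0125). That the alpelisib libraries of these 5 genes lay above both tamoxifen libraries nearly follows from passing and adds nothing to the test.

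Further FOXO targets that rose were Pmaip1 (1.54 ± 0.26), a BH3-only death gene, Trib1 (1.53 ± 0.25), Cited2 (1.51 ± 0.31), Klf6 (1.46 ± 0.21) and the cyclin G gene Ccng2 (1.10 ± 0.21). The sestrins Sesn3 (0.99 ± 0.17) and Sesn1 (0.82 ± 0.15), which restrain mTORC1, the selenium carrier Sepp1 (0.87 ± 0.18) and the pocket protein gene Rbl2 (0.79 ± 0.15) rose as well. Several textbook targets did not pass. Txnip was at 105 and 140 FPKM with tamoxifen and at 126 and 129 FPKM with alpelisib (0.07 ± 0.18, adjusted p = 0.832). The cell cycle inhibitor genes Cdkn1b (0.35 ± 0.13, adjusted p = 0.126) and Cdkn1a (0.77 ± 0.27, adjusted p = 0.119), the death gene Bcl2l11 (0.36 ± 0.17, adjusted p = 0.221) and the antioxidant genes Sod2 (0.05 ± 0.13) and Cat (0.25 ± 0.16) did not pass either. Igfbp1, G6pc and Ppargc1a, targets known from liver, and Trim63, known from muscle, stayed under 1 FPKM in every library and were not tested.

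The promoter of Btg1 is printed as the one FOXO target that both rose in this comparison and was at over 20 FPKM in all 4 libraries while holding the FOXO motif. RefSeq windows were matched for 33 of the 39 list members, and 6 held GTAAACA on either strand (Bbc3, Bcl2l11, Btg1, Sesn1, Trim63 and Txnip). The motif was held by 4.05% of all genes with a window and by 3.65% of the windows searched. Of these 6, Btg1 and Sesn1 rose. The window is chr10:96616751-96617000, plus strand, with the reverse complement of the motif in capitals, its first base 204 bases before the start.
Btg1: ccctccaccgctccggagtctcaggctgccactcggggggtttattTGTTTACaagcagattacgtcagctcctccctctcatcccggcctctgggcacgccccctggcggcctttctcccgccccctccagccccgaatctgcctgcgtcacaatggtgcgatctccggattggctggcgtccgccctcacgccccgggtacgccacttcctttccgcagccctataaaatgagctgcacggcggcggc
The match is a description of the letters only.

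Receptors and adaptors that feed PI3K were partly higher. Of 19 tested members 4 rose and none fell, with a median of 0.13. Igf1r, the receptor of insulin-like growth factor 1, was at 1.34 and 1.17 FPKM with tamoxifen and at 3.34 and 2.79 FPKM with alpelisib (log2 fold change 0.85 ± 0.18, adjusted p = 0.0333). Erbb3, the kinase-poor partner of ERBB2 that docks PI3K, was at 8.97 and 9.59 FPKM and then at 14.8 and 15.9 FPKM (0.67 ± 0.13, adjusted p = 0.027). Irs2, an insulin receptor substrate, was at 0.227 and 0.160 FPKM and then at 0.962 and 0.913 FPKM (0.70 ± 0.13, adjusted p = 0.0229). Gab1, a docking protein for PI3K, was at 2.30 and 2.38 FPKM and then at 4.20 and 4.31 FPKM (0.65 ± 0.14, adjusted p = 0.0372). The levels of Igf1r, Irs2 and Gab1 were low. Insr (0.28 ± 0.16), Erbb2 (0.18 ± 0.12), Egfr (0.05 ± 0.12) and Irs1 (-0.35 ± 0.15) did not pass. Each of the 4 calls was lost when any 1 of the 4 libraries was left out.

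Of 31 tested genes of PI3K, AKT, mTOR and their regulators, 1 rose and 2 fell, with a median of 0.04, and these counts are close to the shares of all genes tested. Pik3ca, which encodes the alpha subunit that alpelisib inhibits, was at 2.74 and 2.31 FPKM with tamoxifen and at 3.04 and 2.97 FPKM with alpelisib (log2 fold change 0.19 ± 0.15, adjusted p = 0.483). Sgk1, a kinase related to AKT, was at 6.77 and 12.6 FPKM and then at 29.6 and 32.4 FPKM (1.64 ± 0.26, adjusted p = 0.0155). Pik3r3, a regulatory subunit, was at 8.92 and 7.82 FPKM and then at 3.47 and 3.66 FPKM (-1.03 ± 0.16, adjusted p = 0.0142). Ddit4, a stress-induced inhibitor of mTORC1, was at 165 and 240 FPKM and then at 99.9 and 93.7 FPKM (-1.03 ± 0.23, adjusted p = 0.0408). Without either alpelisib library none of the 3 passed. The regulatory subunit gene Pik3r1 (-0.55 ± 0.15, adjusted p = 0.0714), Akt1 (0.13 ± 0.16), Akt2 (0.17 ± 0.13), Mtor (-0.16 ± 0.13) and the translation repressor gene Eif4ebp1 (1.08 ± 0.34, adjusted p = 0.0939) did not pass.

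**Figure D2:**
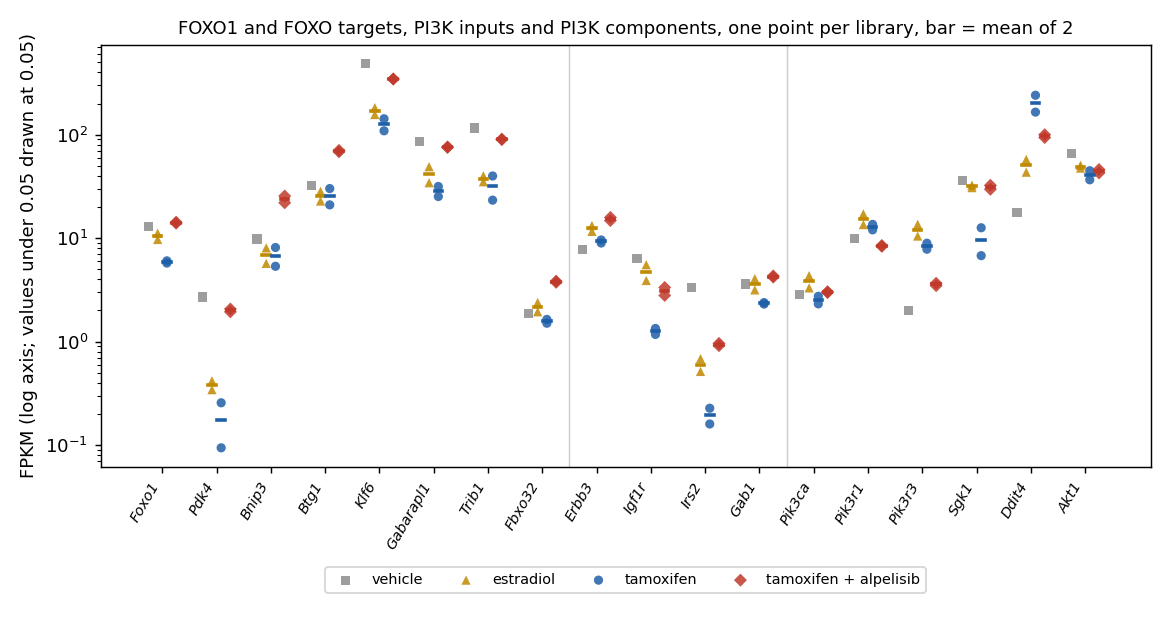
FPKM on a log axis of Foxo1 and 7 FOXO targets, 4 inputs of PI3K and 6 pathway components (divided by lines), with 1 point per library and a bar at the mean of each group of 2. The alpelisib points of Foxo1 and the 7 targets lie above both tamoxifen points, which nearly follows from their passing. Those of Pik3ca and Akt1 lie close to the tamoxifen points.

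In ribosome biogenesis 9 of 21 tested members fell and none rose, with a median log2 fold change of -0.59. Nop56, a core protein of nucleolar RNA particles, was at 22.7 and 24.4 FPKM with tamoxifen and at 9.75 and 10.1 FPKM with alpelisib (-1.17 ± 0.13, adjusted p = 0.00578). Nolc1, a nucleolar chaperone, was at 9.01 and 8.69 FPKM and then at 3.23 and 3.54 FPKM (-1.17 ± 0.12, adjusted p = 0.0055). Nop2, an RNA methyltransferase, fell by 1.12 ± 0.14, Bop1 by 1.05 ± 0.18, Rrp12 by 0.997 ± 0.17, Nop58 by 0.76 ± 0.13 and the polymerase I subunit gene Polr1b by 0.74 ± 0.16. The abundant nucleolar genes Npm1 (150 and 143 FPKM, then 151 and 144 FPKM) and Ncl (-0.20 ± 0.20, adjusted p = 0.546) did not pass. Srm, spermidine synthase, was among the 12 named genes with the lowest fold change, at 15.4 and 20.2 FPKM and then at 4.16 and 3.97 FPKM (-1.88 ± 0.18, adjusted p = 0.00441). Members that fell numbered 3 without either tamoxifen library and 0 without either alpelisib library, with medians from -0.65 to -0.57.

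Of 32 tested mitosis genes 13 fell and none rose, and 31 had a negative sign, with a median of -0.65. Ccna2, cyclin A2, was at 3.72 and 3.60 FPKM with tamoxifen and at 1.35 and 1.496 FPKM with alpelisib (log2 fold change -0.94 ± 0.13, adjusted p = 0.00935). Plk1, a mitotic kinase, was at 3.82 and 5.63 FPKM and then at 1.39 and 1.08 FPKM (-1.34 ± 0.24, adjusted p = 0.0206). Top2a, the topoisomerase of dividing cells, was at 8.20 and 5.60 FPKM and then at 2.97 and 2.89 FPKM (-0.99 ± 0.19, adjusted p = 0.0249). Mki67, the gene of the proliferation marker Ki-67, was at 3.65 and 2.85 FPKM and then at 0.911 and 1.13 FPKM, next to 1.17 FPKM in the vehicle library. It did not pass (-1.07 ± 0.28, adjusted p = 0.059), with estradiol libraries at 16.6 and 30.4 FPKM in the shared estimate of the spread. The summed level of the list was 124 and 147 FPKM with tamoxifen and 69.7 and 71.0 FPKM with alpelisib, against 50.2 FPKM in the vehicle library. In bulk libraries fewer dividing cells and less of each RNA per cell cannot be told apart, here or in any other gene group. Members that fell numbered 1 without tamoxifen 1, 4 without tamoxifen 2 and 0 without either alpelisib library, with medians from -0.72 to -0.60.

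DNA replication moved in the same direction in fewer genes: 6 of 31 tested members fell and none rose, with a median of -0.45. Uhrf1, which carries DNA methylation through replication, was at 3.58 and 3.46 FPKM with tamoxifen and at 0.841 and 1.03 FPKM with alpelisib (log2 fold change -1.22 ± 0.13, adjusted p = 0.00554). The helicase subunit genes Mcm5 (-0.83 ± 0.15), Mcm2 (-0.80 ± 0.12) and Mcm3 (-0.62 ± 0.13) fell, as did the flap nuclease gene Fen1 (-0.68 ± 0.12) and the chromatin assembly gene Chaf1a (-0.59 ± 0.13). Pcna, the sliding clamp, was at 52.6 and 71.6 FPKM and then at 55.6 and 59.6 FPKM and did not pass (-0.09 ± 0.23, adjusted p = 0.84). Members that fell numbered 1 without tamoxifen 1, 2 without tamoxifen 2 and 0 without either alpelisib library. Of 21 tested G1 cyclins and inhibitors, 2 rose and 1 fell, near the shares of all genes tested (6.93% and 4.81%). Myc was at 2.64 and 5.16 FPKM and then at 15.3 and 18.5 FPKM (1.91 ± 0.28, adjusted p = 0.0121), against 45.2 FPKM in the vehicle library. The inhibitor gene Cdkn2b rose by 0.77 ± 0.18 and the phosphatase gene Cdc25a fell by 0.60 ± 0.12, while Ccnd1, cyclin D1, did not pass (9.61 and 7.75 FPKM, then 9.27 and 11.04 FPKM, adjusted p = 0.435). These 3 calls were also lost without either alpelisib library.

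Chaperones of the endoplasmic reticulum, where secreted proteins fold, were partly lower. Of 24 tested members of the list 6 fell and none rose, with a median log2 fold change of -0.48, and all 6 were among its 15 chaperones. Hyou1 was at 52.7 and 36.1 FPKM with tamoxifen and at 14.8 and 13.1 FPKM with alpelisib (-1.58 ± 0.24, adjusted p = 0.014). Pdia4, a disulfide isomerase, was at 152 and 91.3 FPKM and then at 50.7 and 45.1 FPKM (-1.28 ± 0.26, adjusted p = 0.0308). Creld2 (-1.13 ± 0.19), Sdf2l1 (-1.06 ± 0.17), Dnajb11 (-0.96 ± 0.17) and Dnajc3 (-0.63 ± 0.13) also fell. The abundant chaperone Hspa5 was at 650 and 895 FPKM and then at 678 and 705 FPKM and did not pass (-0.14 ± 0.28, adjusted p = 0.793), nor did Xbp1 (0.06 ± 0.15). Members that fell numbered 0 without tamoxifen 1, 3 without tamoxifen 2 and 0 without either alpelisib library.

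In glycolysis and lactate handling 3 of 22 tested members rose and 1 fell, with a median of 0.09. These counts are not far from the shares of all genes tested (6.93% and 4.81%). The hexokinase gene Hk1 (log2 fold change 0.71 ± 0.13), Pfkp (0.71 ± 0.16) and Pfkfb3 (0.78 ± 0.15), 2 genes that set the flux through phosphofructokinase, rose from low levels of 0.734 to 1.92 FPKM with tamoxifen. The lactate transporter gene Slc16a1 fell by 0.52 ± 0.12. Ldha was at 468 and 462 FPKM with tamoxifen and at 321 and 317 FPKM with alpelisib and did not pass (-0.54 ± 0.21, adjusted p = 0.151), and Gapdh was level (0.04 ± 0.24). In the amino acid stress response, 4 of 22 tested members fell and 1 rose. The serine synthesis genes Phgdh (-0.82 ± 0.16) and Psat1 (-0.97 ± 0.22), the mitochondrial folate enzyme gene Mthfd2 (-1.07 ± 0.18) and the cystine transporter gene Slc7a11 (-0.92 ± 0.20) fell, and Sesn2 rose (1.27 ± 0.16). The factor of this response, Atf4, was at 76.3 and 147 FPKM and then at 167 and 175 FPKM and did not pass (0.69 ± 0.41, adjusted p = 0.32). All the calls of both lists were lost without either alpelisib library.

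Chemokines that attract neutrophils gave some of the highest fold changes of the comparison. Of 17 tested chemokines 7 rose and none fell, with a median log2 fold change of 0.94, and 5 of the 6 members that attract neutrophils rose. Cxcl1 was at 27.8 and 64.0 FPKM with tamoxifen and at 250.3 and 291 FPKM with alpelisib (2.65 ± 0.38, adjusted p = 0.0114). Cxcl2 was at 7.16 and 16.1 FPKM and then at 120.0 and 132 FPKM (3.43 ± 0.36, adjusted p = 0.00563). Cxcl3 was at 0.194 and 0.146 FPKM and then at 10.97 and 12.3 FPKM (3.43 ± 0.15, adjusted p = 0.00156). In these 3 genes the vehicle library stood at 26.2, 7.30 and 0.375 FPKM, near the tamoxifen libraries. Cxcl5 was at 0.497 and 0.786 FPKM and then at 18.1 and 17.7 FPKM (3.53 ± 0.18, adjusted p = 0.00156), a level also seen with estradiol (20.5 and 15.4 FPKM). Ppbp, the precursor of CXCL7, was at 0.717 and 2.29 FPKM and then at 32.3 and 31.7 FPKM (3.80 ± 0.31, adjusted p = 0.00355), with 59.3 FPKM in the vehicle library. Ppbp is also a platelet gene, and the platelet marker Pf4 was at or under 0.432 FPKM in the 4 libraries. Cxcl13, which attracts B cells, rose by 1.73 ± 0.21 and Ccl2, which attracts monocytes, by 1.77 ± 0.20, while Cxcl10, Cxcl16 and Cxcl17 did not pass. The count of members that rose was 7 without tamoxifen 1, 8 without tamoxifen 2, 3 without alpelisib 1 and 2 without alpelisib 2.

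Promoters of Cxcl1, Cxcl2 and Cxcl3 are printed because these neighbouring genes moved together. The kappa B motif, to which NF-kB binds, was searched as GGGANTTTC on either strand. It was held by 3 of the 5 neutrophil-attracting chemokine genes with a RefSeq window (GRCm38.p6), Cxcl1, Cxcl2 and Cxcl3. Among all genes with a window 1.29% held it, and among the 32851 windows searched 1.11%. The printed windows are chr5:90890995-90891244, plus strand for Cxcl1, chr5:90903649-90903898, plus strand for Cxcl2 and chr5:90785851-90786100, plus strand for Cxcl3, with the motif in capitals.
Cxcl1: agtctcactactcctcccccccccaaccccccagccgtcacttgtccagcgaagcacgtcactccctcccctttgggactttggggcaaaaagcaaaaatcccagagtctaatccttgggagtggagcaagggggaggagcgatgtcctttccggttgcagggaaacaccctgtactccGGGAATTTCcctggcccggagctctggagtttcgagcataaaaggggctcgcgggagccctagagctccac
Cxcl2: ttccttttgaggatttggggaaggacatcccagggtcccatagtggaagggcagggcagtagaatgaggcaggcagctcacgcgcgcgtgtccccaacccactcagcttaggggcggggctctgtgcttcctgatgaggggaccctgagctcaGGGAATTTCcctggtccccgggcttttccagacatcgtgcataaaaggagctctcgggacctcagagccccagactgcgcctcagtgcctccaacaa
Cxcl3: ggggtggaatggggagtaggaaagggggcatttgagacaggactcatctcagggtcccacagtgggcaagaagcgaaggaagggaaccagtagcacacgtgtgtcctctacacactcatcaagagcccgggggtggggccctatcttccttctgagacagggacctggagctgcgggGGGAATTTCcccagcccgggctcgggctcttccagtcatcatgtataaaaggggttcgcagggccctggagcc
The first base of the motif lies 71, 97 and 73 bases before the start of Cxcl1, Cxcl2 and Cxcl3. The searched motif was not found in the windows of the other matched genes, Ppbp and Cxcl15.

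In the list of the interleukin 1 family and inflammation the members that rose were mostly NF-kB regulators and inflammatory genes such as Il6. Of 21 tested members 10 rose and 1 fell, with a median log2 fold change of 0.73. Of the 10 tested NF-kB regulators and inflammatory genes 8 rose, with a median of 1.47. Of the 11 tested interleukin 1 family ligands and receptors 2 rose and 1 fell, with a median of 0.16. Il1a, an epithelial alarm cytokine, was at 117 and 141 FPKM with tamoxifen and at 398 and 429 FPKM with alpelisib (1.68 ± 0.17, adjusted p = 0.00529), against 3.17 FPKM in the vehicle library. Tnfaip3, which encodes the NF-kB inhibitor A20, was at 28.7 and 47.0 FPKM and then at 188 and 212 FPKM (2.41 ± 0.24, adjusted p = 0.00487). Il6 was at 0.955 and 1.19 FPKM and then at 10.7 and 13.1 FPKM (2.64 ± 0.39, adjusted p = 0.012). Icam1 (2.03 ± 0.21), which holds leukocytes, the prostaglandin synthase gene Ptgs2 (1.72 ± 0.18), and the NF-kB genes Relb (1.64 ± 0.14), Nfkbiz (1.29 ± 0.25) and Nfkb2 (1.05 ± 0.15) rose too. The one that fell was Il1r1, the signalling receptor of interleukin 1, from 40.7 and 40.1 FPKM to 9.55 and 9.88 FPKM (-1.95 ± 0.12, adjusted p = 0.00198). The decoy receptor gene Il1r2 was level (87.8 and 94.9 FPKM, then 82.3 and 81.2 FPKM). Members that rose numbered 5 without tamoxifen 1, 9 without tamoxifen 2 and 0 without either alpelisib library, and the medians over the 4 sets without 1 library ran from 0.69 to 0.83.

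Among antimicrobial genes 4 of 19 tested rose and none fell, with a median of 0.01. S100a9 was at 2.996 and 6.32 FPKM with tamoxifen and at 40.2 and 43.2 FPKM with alpelisib (log2 fold change 2.98 ± 0.53, adjusted p = 0.0216). Its partner S100a8, which with it forms calprotectin, was listed at 0 in both tamoxifen libraries and at 6.98 and 7.37 FPKM with alpelisib (adjusted p = 0.00156). The protease inhibitor gene Slpi (2.11 ± 0.39) and the defensin gene Defb1 (1.99 ± 0.16) rose. Without either alpelisib library S100a8 was the only one of the 4 to pass. The most abundant defence genes, Lcn2 (0.17 ± 0.37), Ltf (-0.57 ± 0.25) and C3 (-0.39 ± 0.30), did not pass. S100a8 and S100a9 are also neutrophil genes. Of the 13 neutrophil markers 9 stayed under 1 FPKM in every library, with Csf3r at or under 0.113 FPKM, Cxcr2 at or under 0.0199 FPKM and Elane listed at 0 in the 4 libraries, and Ly6g was not higher with alpelisib (2.28 and 2.10 FPKM, then 1.53 and 1.70 FPKM). Of 9 tested macrophage markers 1 rose and none fell, and 8 had a positive sign, with a list sum of 55.3 and 69.0 FPKM with tamoxifen and 131 and 131 FPKM with alpelisib. Cd14 rose by 1.62 ± 0.18 and made up most of that sum. C1qa was at 3.16 and 3.63 FPKM and then at 4.08 and 4.56 FPKM, C1qb at 1.16 and 3.31 FPKM and then at 4.75 and 3.71 FPKM, and C1qc at 2.29 and 1.602 FPKM and then at 3.01 and 2.33 FPKM. These 3 did not pass, and Adgre1 and Csf1r were at or under 0.485 FPKM in the 4 libraries. Among general leukocyte markers Cd52 was at 7.23 and 9.51 FPKM and then at 19.8 and 17.3 FPKM (1.07 ± 0.16, adjusted p = 0.0135) and Laptm5 fell (-0.65 ± 0.16, adjusted p = 0.0474), while Ptprc was at or under 0.111 FPKM in the 4 libraries. The list sum was 47.1 and 45.1 FPKM and then 44.1 and 41.0 FPKM. The calls of Cd14, Cd52 and Laptm5 were lost without either alpelisib library, that of Cd52 also without tamoxifen 1 and that of Laptm5 without either tamoxifen library, and the part of leukocytes in the chemokine and inflammation values was not tested.

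Keratins were prominent among the squamous genes that rose. Of 35 list members 29 were tested, 14 rose and 1 fell, with a median log2 fold change of 0.90, or 0.88 without Cnfn, which was listed at 0 with tamoxifen. Krt14, the keratin of basal cells, was at 32.5 and 37.5 FPKM with tamoxifen and at 215 and 216 FPKM with alpelisib (2.59 ± 0.14, adjusted p = 0.00156). Its partner Krt5 was level at 271 to 321 FPKM (0.04 ± 0.17, adjusted p = 0.903), and so was Krt15 (-0.16 ± 0.14). Krt16, a keratin of stressed epidermis, was at 0.493 and 0.757 FPKM and then at 11.4 and 12.9 FPKM (3.02 ± 0.20, adjusted p = 0.00256). Krt17 (1.82 ± 0.25), Krt6a (1.45 ± 0.13), Krt6b (1.20 ± 0.12) and Krt13 (1.07 ± 0.14), the last a keratin of mucosal squamous layers, rose. Lgals7, galectin 7, was at 14.9 and 25.9 FPKM and then at 110.1 and 129 FPKM (2.54 ± 0.29, adjusted p = 0.00641). The crosslinking enzyme gene Tgm1 (1.46 ± 0.13), the desmosomal genes Dsg3 (0.94 ± 0.13) and Pkp1 (0.91 ± 0.17), and Trp63 (0.60 ± 0.13), the factor that specifies squamous cells, rose, while Dsc2 fell (-0.97 ± 0.13). The markers of epidermal differentiation Krt1 (-0.15 ± 0.20), Krt10 (0.40 ± 0.30) and Lor (0.42 ± 0.25) did not pass. The list shares its keratins with the markers of cervical or vaginal basal epithelium, of which 4 of 7 rose, with a summed level of 603 and 551 FPKM against 838 and 844 FPKM. Whether more such cells or more RNA per cell lay behind this was not tested. The count of members that rose was 10 without tamoxifen 1, 13 without tamoxifen 2, 2 without alpelisib 1 and 1 without alpelisib 2.

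The Sprr2 genes encode small proline-rich proteins of the cornified envelope, some of them known as estrogen-responsive in the uterus. Of 12 tested 7 rose and 2 fell, with a median log2 fold change of 1.30, or 1.39 without the members listed at 0 in a group. Sprr2d was at 17.4 and 54.8 FPKM with tamoxifen and at 312 and 392.4 FPKM with alpelisib (log2 fold change 3.45 ± 0.49, adjusted p = 0.0113). Sprr2e was at 4.07 and 18.5 FPKM and then at 151 and 165 FPKM (3.998 ± 0.60, adjusted p = 0.0129). Sprr2b was at 7.33 and 18.7 FPKM and then at 129 and 166 FPKM (3.53 ± 0.42, adjusted p = 0.00713). Tamoxifen 2 exceeded tamoxifen 1 in all 3. Sprr2g (2.60 ± 0.41) and Sprr2h (2.26 ± 0.23) also rose. Sprr2i and Sprr2k rose from a listed 0 with tamoxifen to between 1.05 and 2.73 FPKM. Sprr2a1 (-1.26 ± 0.25) and Sprr2a2 (-1.28 ± 0.25) fell, and Sprr2f, by far the most abundant, did not pass (0.51 ± 0.47, adjusted p = 0.529). How the authors divided reads among these near-identical copies is not stated, so the values of single members are uncertain. Members that rose numbered 4 without tamoxifen 1, 5 without tamoxifen 2 and 0 without either alpelisib library.

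In the Ly6 and uPAR family of small surface or secreted proteins, 5 of 12 tested members of the list rose and none fell, with a median log2 fold change of 1.03. Lypd8, a member of the family that the list does not hold, fell (-1.86 ± 0.13, adjusted p = 0.00276). Psca, prostate stem cell antigen, had the highest fold change of the named genes on the log2(FPKM + 1) scale, at 0.408 and 1.96 FPKM with tamoxifen and at 37.0 and 35.3 FPKM with alpelisib (log2 fold change 4.18 ± 0.38, adjusted p = 0.00423). As a plain ratio of group means Psca was 30.5 times higher, less than the 68.5 times of Cxcl3. Slurp1, a secreted regulator of keratinocytes, was at 0.702 and 0.434 FPKM and then at 15.1 and 19.1 FPKM (3.52 ± 0.28, adjusted p = 0.00355). Plaur, the urokinase receptor, was at 14.9 and 30.3 FPKM and then at 120.1 and 136 FPKM (2.53 ± 0.41, adjusted p = 0.0162). Plau, urokinase itself, was at 7.71 and 11.8 FPKM and then at 47.1 and 45.2 FPKM (2.16 ± 0.21, adjusted p = 0.00487). Lypd3 (1.998 ± 0.21) and Ly6g6c (0.93 ± 0.13) rose, and Ly6a (0.36 ± 0.42) and Ly6e (-0.13 ± 0.33) did not pass. These calls were lost without either alpelisib library.

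Of 18 tested genes of the tight junction 6 rose and 1 fell, with a median log2 fold change of 0.40. Cldn1, which seals squamous barriers, was at 0.587 and 0.750 FPKM with tamoxifen and at 5.46 and 6.40 FPKM with alpelisib (2.05 ± 0.13, adjusted p = 0.00256). Cldn4 was at 213 and 479 FPKM and then at 1110 and 1251 FPKM (1.88 ± 0.45, adjusted p = 0.0464). Cldn10 (1.58 ± 0.18), Cldn15 (1.34 ± 0.18) and the occludin gene Ocln (1.36 ± 0.13) rose. Cldn5, a claudin of endothelium, fell from 0.599 and 0.476 FPKM to a listed 0, and the median without it was 0.53. Cldn7 (0.02 ± 0.35) and Cldn3 (0.73 ± 0.34) did not pass. The count of members that rose was 4 without tamoxifen 1, 6 without tamoxifen 2, 1 without alpelisib 1 and 0 without alpelisib 2.

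**Figure D3:**
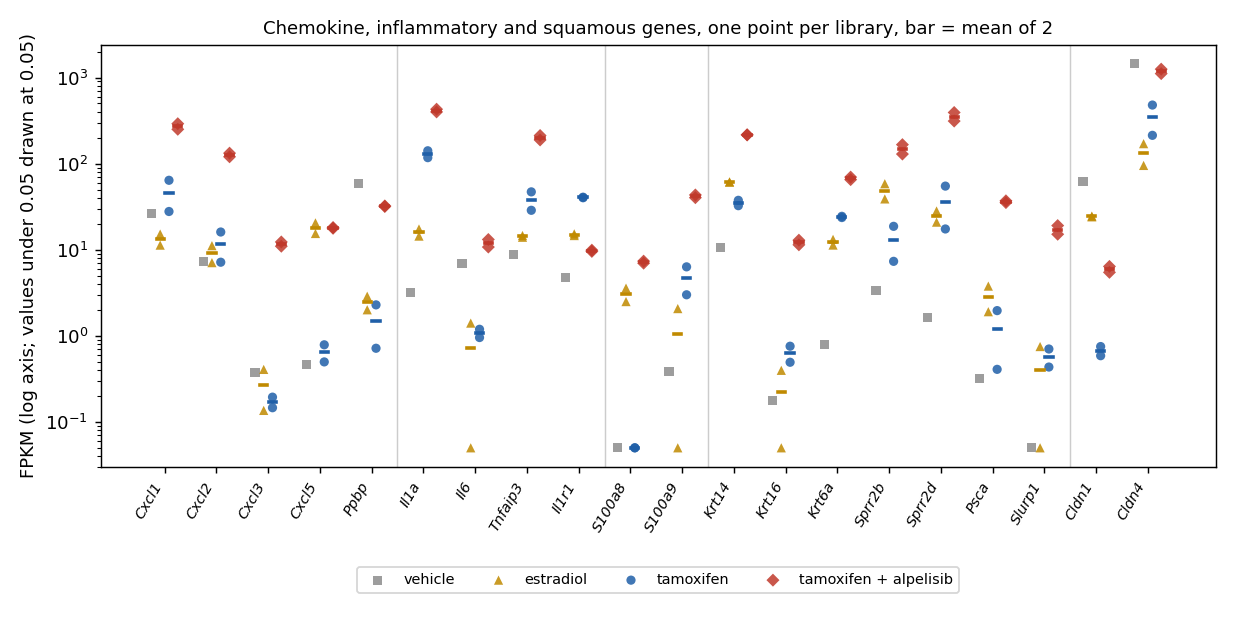
FPKM on a log axis of chemokine, inflammatory, calprotectin, squamous and claudin genes (divided by lines), with 1 point per library, a bar at the mean of each group of 2, and values under 0.05 drawn at 0.05. The alpelisib points lie above both tamoxifen points in every gene drawn except Il1r1, where they lie below at 9.55 and 9.88 FPKM. All genes drawn had passed, from which this separation nearly follows.

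Early response genes showed the largest gap between the 2 tamoxifen libraries. Of 22 tested genes of the AP-1 and immediate early list 7 rose with alpelisib and none fell, with a median log2 fold change of 0.76. In all 22 genes tamoxifen 2 was above tamoxifen 1, with a median log2 difference of 0.88, larger than the median difference between the groups. The median fold change was 0.31 without tamoxifen 1 and 1.10 without tamoxifen 2. Of the 7 calls, 1 passed without tamoxifen 1 and none without either alpelisib library, and the list had 5 calls without tamoxifen 2. Fos was at 305 and 626 FPKM with tamoxifen and at 410.5 and 439 FPKM with alpelisib (-0.04 ± 0.36, adjusted p = 0.958), inside the range of the tamoxifen libraries, as was Jun (286 and 559 FPKM, then 416 and 423 FPKM). Fosl1, an AP-1 member induced by lasting ERK signals, was at 7.08 and 15.0 FPKM and then at 63.9 and 67.5 FPKM (2.55 ± 0.36, adjusted p = 0.0105). Fosl2 (1.28 ± 0.16), Maff (2.12 ± 0.37), Mafk (1.36 ± 0.27), Nr4a1 (1.73 ± 0.42), Nr4a3 (0.82 ± 0.18) and Klf10 (1.26 ± 0.22) rose, and Egr1 (0.69 ± 0.24) and Atf3 (1.53 ± 0.41, adjusted p = 0.0647) did not pass. The cause of the gap was not tested.

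Of 15 tested feedback genes of ERK signalling 8 rose and none fell, with a median log2 fold change of 0.84 that was 0.72 without tamoxifen 1 and 1.18 without tamoxifen 2. The phosphatase gene Dusp5 was at 43.6 and 82.6 FPKM with tamoxifen and at 298 and 325 FPKM with alpelisib (2.35 ± 0.31, adjusted p = 0.0091). Dusp10 was at 2.02 and 3.23 FPKM and then at 13.0 and 13.97 FPKM (2.02 ± 0.19, adjusted p = 0.00441), and Dusp4 at 6.31 and 10.9 FPKM and then at 34.7 and 36.4 FPKM (1.97 ± 0.25, adjusted p = 0.00876). Phlda1 (1.84 ± 0.34), Dusp14 (1.69 ± 0.32), the sprouty genes Spry1 (1.28 ± 0.21) and Spry2 (0.68 ± 0.16) and the related Spred2 (0.79 ± 0.14) rose. The ERK output genes Dusp6 (0.84 ± 0.27, adjusted p = 0.102), Etv4 (0.37 ± 0.14) and Etv5 (-0.39 ± 0.18) did not pass. Hbegf, a ligand of the EGF receptor, was at 79.4 and 139 FPKM and then at 320.5 and 334 FPKM (1.63 ± 0.28, adjusted p = 0.0193), the 1 of 5 tested EGF family ligands that rose. In the ERK list 4 members rose without tamoxifen 1, 5 without tamoxifen 2 and 0 without either alpelisib library, where Hbegf did not pass either.

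Of 14 tested YAP and matricellular targets 6 rose and none fell, with a median of 0.74. Ctgf, which encodes a secreted matrix-associated protein, was at 3.66 and 7.58 FPKM with tamoxifen and at 64.7 and 67.4 FPKM with alpelisib (log2 fold change 3.41 ± 0.31, adjusted p = 0.00418), against 259 FPKM in the vehicle library. The other classical target Cyr61 was at 242 and 526 FPKM and then at 632 and 672 FPKM and did not pass (0.87 ± 0.42, adjusted p = 0.23). The tissue factor gene F3 (1.62 ± 0.30), Amotl2 (1.38 ± 0.17), Thbs1 (1.23 ± 0.16), Ankrd1 (1.19 ± 0.26) and Tgfbi (0.62 ± 0.13) rose, and members that rose numbered 2 without tamoxifen 1, 5 without tamoxifen 2 and 0 without either alpelisib library.

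**Figure D4:**
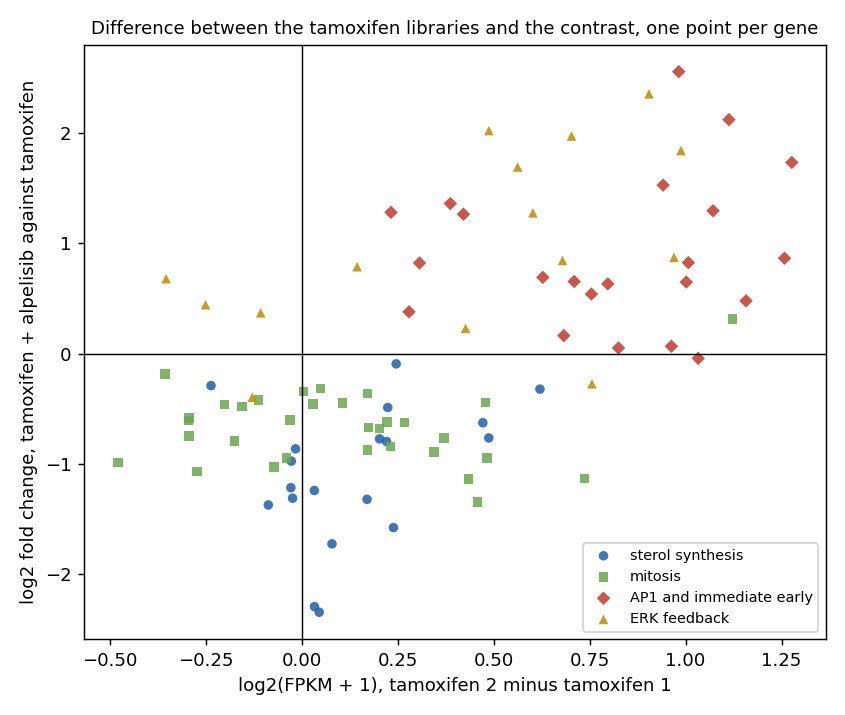
Log2 fold change of alpelisib plus tamoxifen against tamoxifen (y axis) against the difference on the log2(FPKM + 1) scale between the 2 tamoxifen libraries (x axis), with 1 point per tested gene of 4 lists. All 22 early genes lie right of 0, while the 19 sterol genes lie below 0 on the y axis and on both sides of 0 on the x axis.

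Of 24 tested genes of the uterine estrogen response 1 rose and 1 fell, with a median log2 fold change of -0.07, which is near the 6.93% and 4.81% of all genes tested. Esr1, the estrogen receptor, was at 22.4 and 20.6 FPKM with tamoxifen and at 21.2 and 22.7 FPKM with alpelisib (0.03 ± 0.25), and Greb1, an estrogen receptor cofactor and target, gave -0.11 ± 0.19. Pgr, the progesterone receptor, was at 15.3 and 14.9 FPKM and then at 11.5 and 11.4 FPKM and did not pass (-0.37 ± 0.12, adjusted p = 0.0997). The one that rose was the trefoil factor gene Tff1, at 0 and 0.133 FPKM and then at 4.54 and 5.52 FPKM (2.50 ± 0.14, adjusted p = 0.00178). Ramp3, a receptor partner for adrenomedullin, fell from 2.87 and 2.52 FPKM to 0.106 and a listed 0 FPKM (-1.81 ± 0.16, adjusted p = 0.00405), a call lost without either alpelisib library. Of 12 tested progesterone response genes 2 rose (Ptgs1, 0.91 ± 0.12, and Fkbp5, 0.87 ± 0.13) and 1 fell (Hdc, -0.75 ± 0.17). Among 19 gland and Mullerian duct genes 2 rose and none fell, again near the shares of all genes tested. They were Foxa1, a pioneer factor, from 1.73 and 2.39 FPKM to 9.99 and 10.6 FPKM (1.89 ± 0.20, adjusted p = 0.00571), and Klf5, from 18.6 and 19.95 FPKM to 55.7 and 54.9 FPKM (1.48 ± 0.13, adjusted p = 0.00418). The gland factor Foxa2 (-0.46 ± 0.27), Pax8 (0.57 ± 0.15, adjusted p = 0.0573) and Sox9 (0.81 ± 0.20, adjusted p = 0.0538) did not pass. These 5 calls were lost without either alpelisib library.

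**Figure D5:**
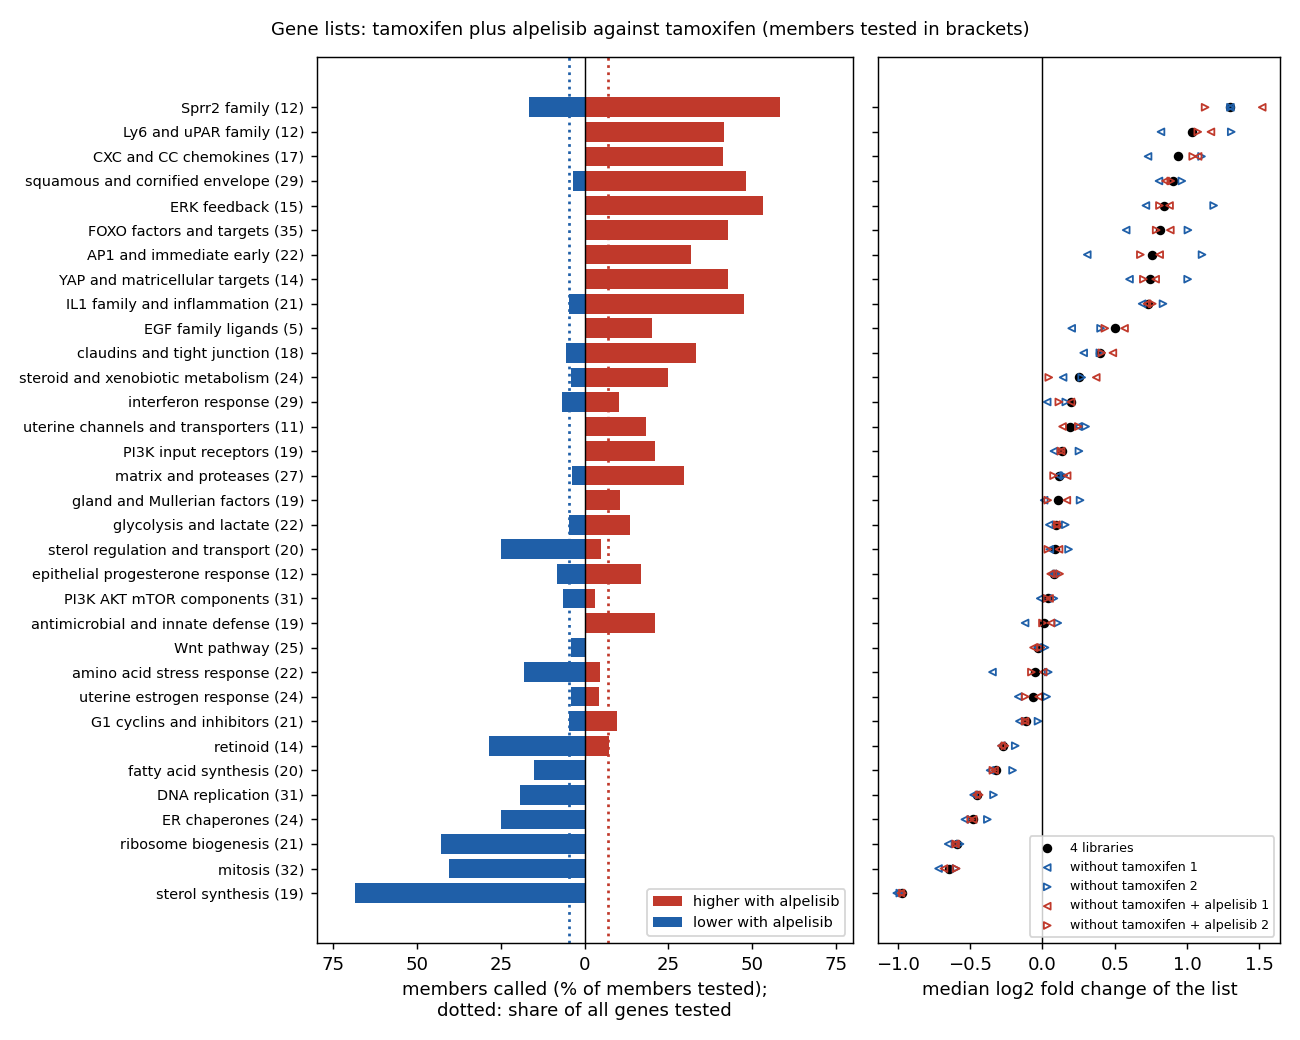
Left, share of tested members of each of 33 gene lists that passed as higher or lower with alpelisib, with dotted lines at the shares of all genes tested (6.93% and 4.81%). Right, median log2 fold change of each list with all libraries and without each of the 4 libraries. Sterol synthesis stands lowest on both sides (13 of 19 members lower), and the medians of the early gene list spread most, from 0.31 to 1.10.

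Markers of other cell types were among the genes that passed. Globin RNA, a sign of red blood cells, was lower with alpelisib: Hbb-b1 was at 513 and 416 FPKM with tamoxifen and at 103 and 113 FPKM with alpelisib (log2 fold change -2.09 ± 0.17, adjusted p = 0.00355), Hbb-bt fell by 2.10 ± 0.27, and the summed erythroid markers went from 1238 and 938 FPKM to 237 and 262 FPKM. Of 6 tested smooth muscle markers 4 fell, among them Acta2, at 5.89 and 5.43 FPKM and then at 1.78 and 1.27 FPKM (-1.41 ± 0.16, adjusted p = 0.00681). Tagln, the most abundant of the 6, had the only positive sign, at 9.83 and 8.40 FPKM and then at 13.5 and 14.9 FPKM. It did not pass (0.59 ± 0.18, adjusted p = 0.085). The list sum of smooth muscle was 22.7 and 20.1 FPKM and then 17.1 and 18.1 FPKM. Of 12 tested stromal markers 3 rose and 1 fell. Dcn was at 31.7 and 30.9 FPKM and then at 86.8 and 93.1 FPKM (1.49 ± 0.16, adjusted p = 0.00563), Vim rose by 1.21 ± 0.16 and Lum by 1.04 ± 0.24, while Dpt fell (-1.04 ± 0.14) and the collagen genes Col1a1 (-0.37 ± 0.15) and Col3a1 (-0.41 ± 0.19) did not pass. Of 6 tested mesothelial markers 4 rose, led by Wt1 (1.35 ± 0.20) and Upk3b (1.22 ± 0.14), with a sum of 11.7 and 14.2 FPKM and then 34.9 and 32.7 FPKM. Of 9 tested endothelial markers 2 fell, Emcn and Cldn5, both at or under 0.641 FPKM in the 4 libraries, and 3 had a positive sign. All these calls were lost without either alpelisib library. The part of these cells in the results above was not tested.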

How the data were processed

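Total RNA of 7 libraries (1 vehicle, 2 estradiol, 2 tamoxifen, 2 tamoxifen plus alpelisib) was prepared with a TruSeq kit, per the labels' protocols. The deposited values are FPKM per gene; the submitters' processing notes list Cufflinks, Bowtie and CASAVA with no version, and the human build hg19 although the symbols are mouse, so no position is taken from the files. That the values are FPKM was read from the values, since the table is named for counts. The table holds 24353 genes, 6155 of them at 0 in every library. The 27 names turned into dates by a spreadsheet are not named.

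The main test was limma-trend on log2(FPKM + 1) for the 12314 genes that reached an FPKM of 1 in any of the 7 libraries, with 4 group means (3 residual and 3.27 prior degrees of freedom) and Benjamini-Hochberg adjustment over all genes tested. The lone vehicle library is assumed to vary like the others. The 2 libraries of a group were compared before averaging. Over 1004 genes (tamoxifen) and 1020 genes (alpelisib) they differed by more than sampling noise, with a median chi-square of 3.62 for tamoxifen and 1.09 for alpelisib against 0.455 from sampling alone. The labels do not state whether the mouse numbers pair the groups, and the main test did not pair them. Depth is only an estimate, since FPKM does not give it.

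Genes named are the 12 highest and 12 lowest fold changes among passing genes with a mean of at least 5 FPKM over the 4 libraries and groups that do not overlap, without predicted models, pseudogenes, histones and miRNAs, and up to 8 members of lowest p per list (every member for sterol synthesis, PI3K inputs and components, and FOXO); other members are named where a textbook role makes their value of interest. The members and the 33 pathway and 19 cell marker lists were chosen with earlier results of these data known. Some list members enter the counts and medians but are not reported here by name. The alternatives tried were 2 scalings, 2 filters, a pseudocount of 0.1, robust empirical Bayes, only the 4 libraries compared, a replicate block and each replicate left out. The test was checked on simulated data with 200 genes changed, all of a mean above 5 FPKM, and with the same spread in every group. It recovered 0% of them at 1.5-fold, 25.5% at 2-fold and 84% at 4-fold, with 0, 0 and 6 false calls. In the data far more genes passed, 1445, so the adjustment was less strict there and the shares recovered do not carry over. A gene that did not pass is in any case not shown to be unchanged. Software: limma 3.58.1 in R 4.3.3, and Python 3.11.15 with scipy 1.17.1, pandas 2.3.3, numpy 2.4.6 and matplotlib 3.10.9.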

Additional observations from a re-analysis of the deposited data

How the results depend on the processing

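With the 2 libraries of each group the spread is known from 3 degrees of freedom in all, and depth limits genes under about 1 FPKM. Among the named genes that passed, only the 2 scalings could turn the sign, as the groups did not overlap, and none changed sign. Values near 0 did: the median of all genes tested was 0.03 without tamoxifen 2, list medians ran from -0.12 to 0.11 for antimicrobial genes, -0.17 to 0.03 for the estrogen response, -0.35 to 0.04 for amino acid stress and -0.20 to 0.02 for G1 genes, those of PI3K components and Wnt genes also turned, and so did the fold changes of Krt5 (-0.08 to 0.16) and Epcam (-0.06 to 0.30). Elsewhere median-of-ratios scaling, robust empirical Bayes and the filter of 1 FPKM in 2 libraries moved no count of the leading groups by over 1.5 times and no median by more than the spread between replicates. Without a filter on low values, which tests more genes, 870 genes passed (540 higher, 330 lower), with 7 FOXO members higher, 4 mitosis genes lower, 4 ERK feedback genes higher and 3 chaperones lower. With mouse number as a replicate block, which leaves the vehicle library out, 603 passed (440 higher, 163 lower, 73.0% of the calls higher against 59.0%), with 8 FOXO members, 4 mitosis genes, 5 ERK feedback genes, 2 chaperones and 4 ribosome biogenesis genes. Deviations of same-numbered libraries correlated at 0.273 between tamoxifen and alpelisib and at -0.403 and -0.182 between estradiol and these. With only 2 libraries in each group, these values cannot show whether the numbers pair the samples. A pseudocount of 0.1 gave medians of -1.35 for sterol synthesis, -1.05 for mitosis, 1.30 for chemokines, 0.86 for interleukin 1 and inflammation and -0.71 for ribosome biogenesis. Quantile normalization gave -0.95 for sterol synthesis, and the fit of only the 4 libraries, which tests fewer genes, gave 0.62 for claudins.

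Leaving out 1 library at a time, estradiol libraries included, gave 14 to 1809 passing genes, 10 to 1011 higher and 4 to 798 lower; the 71.4% to 78.6% of calls that were higher without 1 of the 4 libraries compare with 59.0%. The counts were 2 to 13 for sterol synthesis (medians -1.01 to -0.97), 0 to 15 for FOXO (0.58 to 1.01), 0 to 17 for mitosis (-0.72 to -0.60), 1 to 15 for squamous genes (0.81 to 0.96), 2 to 8 for chemokines (0.73 to 1.10), 0 to 10 for interleukin 1 and inflammation (0.69 to 0.83), 0 to 7 for ERK feedback (0.72 to 1.18), 0 to 6 for claudins (0.29 to 0.49), 0 to 7 for chaperones (-0.54 to -0.38) and 0 to 10 for ribosome biogenesis (-0.65 to -0.57). Of the 197 named genes that passed, 122 remained with the block, 126 without a filter and 188 to 196 under the other settings that keep all 4 libraries.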

Other observations

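Retinoid genes moved in parts. Of 14 tested members 4 fell and 1 rose, with a median log2 fold change of -0.27, or -0.44 without a member listed at 0 with tamoxifen. Crabp2, which carries retinoic acid to its receptor, was at 85.7 and 123 FPKM with tamoxifen and at 25.8 and 26.6 FPKM with alpelisib (log2 fold change -1.93 ± 0.26, adjusted p = 0.0091), and its relative Crabp1 was at 5.18 and 6.18 FPKM and then at 0.117 and 0.104 FPKM (-2.58 ± 0.13, adjusted p = 0.00156). The synthesis genes Dhrs9 (-1.004 ± 0.20) and Aldh1a2 (-0.87 ± 0.15) fell and Rdh10 rose (0.61 ± 0.14). Of 24 tested genes of steroid and xenobiotic metabolism 6 rose and 1 fell. Sult1d1, a sulfotransferase, was at 6.82 and 8.45 FPKM and then at 53.7 and 52.5 FPKM (2.65 ± 0.21, adjusted p = 0.00355), with 93.4 FPKM in the vehicle library, and Aldh3a1 rose by 1.93 ± 0.15 and Cyp2f2 by 1.64 ± 0.18. Of 11 tested channels and transporters 2 rose, against 6.93% of all genes tested. They were Slc26a4 (pendrin, an anion exchanger), at 2.05 and 1.64 FPKM and then at 9.15 and 9.38 FPKM (1.85 ± 0.13, adjusted p = 0.0031), and Slc12a2 (0.70 ± 0.16). Apart from Crabp1, the calls in this paragraph were lost without either alpelisib library.

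Of 27 tested matrix and protease genes 8 rose and 1 fell, among them the protease gene Adamts1 (1.05 and 1.63 FPKM, then 8.54 and 8.65 FPKM; log2 fold change 2.05 ± 0.17, adjusted p = 0.00355) and Serpinb2, an inhibitor of urokinase (1.601 ± 0.17). Interferon response genes were mixed, with 3 of 29 tested higher and 2 lower, near the shares of all genes tested (6.93% and 4.81%). Of 25 tested Wnt pathway genes only Wnt5a passed (-0.66 ± 0.15). Among the named genes with the lowest fold change that no list holds, Mgat4c, a glycosyltransferase, was at 18.9 and 15.4 FPKM and then at 3.04 and 3.49 FPKM (-2.09 ± 0.20, adjusted p = 0.00487). Lypd8, a secreted Ly6 protein known from the gut and named above, was at 82.3 and 88.9 FPKM and then at 23.2 and 22.6 FPKM (-1.86 ± 0.13, adjusted p = 0.00276). Shisa2 fell by 1.75 ± 0.15, and Ankrd37, a hypoxia target, by 1.94 ± 0.42 (adjusted p = 0.0357). The vehicle library held all 4 at or under 0.741 FPKM. These calls too were lost without either alpelisib library.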
